A study of Mus musculus with 8 samples.

Results

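The 39 Hox genes of the mouse genome were examined in lists of open chromatin that differed between WT hearts and *Chd4-CMko* hearts at embryonic day E10.5. Hox genes were all protein-coding genes of GENCODE M21 named Hoxa, Hoxb, Hoxc or Hoxd with a number, out of 21938 protein-coding genes. A listed peak was assigned to them when its nearest protein-coding transcription start site (TSS) was that of a Hox gene, or when it lay within 10 kb of a Hox gene body. Of the 15736 listed peaks, 13 met this rule, and the choice did not use the peak scores.

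The assay was ATAC-seq, where Tn5 transposase cuts and tags open DNA, and it was run on 4 samples of WT hearts and 4 samples of *Chd4-CMko* hearts. Each sample was made from several pooled and dissociated hearts. *Chd4* encodes CHD4, the ATP-dependent remodelling subunit of NuRD, a repressive chromatin complex, and cardiomyocytes of *Chd4-CMko* embryos lack it. The study's methods describe embryos of this stage from *Chd4 fl/fl* females crossed with *Tnnt2 Cre/+; Chd4 fl/+* males, so that recombination follows the cardiomyocyte troponin gene *Tnnt2* while the other cells of the heart keep *Chd4*. The alleles of the WT hearts are not given in the labels. The deposited lists were 12991 gained peaks, whose signal was higher in *Chd4-CMko*, and 2745 lost peaks, whose signal was higher in WT. They hold no value for a single sample, so no value below has a replicate error and no test between genotypes was possible. The methods state a single sequencing depth per sample, but the lists do not give the depth each library reached. In a whole heart, a change in the share of a cell type and a change in accessibility per cell cannot be told apart.

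Hox genes encode homeodomain transcription factors that give position along the head-to-tail axis. They lie in 4 clusters, and genes at the same place in each cluster are paralogues, numbered from group 1 at the 3′ end to group 13 at the 5′ end. In the embryo they are switched on in that order, with low-numbered genes first and at the front. Polycomb complexes keep them silent elsewhere, and retinoic acid is a known inducer of the 3′ genes. In the heart, low-numbered genes such as *Hoxb1* and *Hoxa3* mark progenitors of the second heart field, while group 13 genes act in the digits, the urogenital tract and the tail end of the embryo.

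Gained peaks lay within 3 kb of a TSS at 11 of the 39 Hox genes, beside 12.3% of all protein-coding genes, and the group 13 gene of every cluster had one at its start. Of the 13 assigned peaks, 12 were gained and 1 was lost. The gained share was 92.3% (Wilson 95% interval 66.7 to 98.6, counting error only) and was 82.6% (82 to 83.1) over all listed peaks, which lies inside that interval. All 12 gained peaks met both arms of the rule, and the lost peak met only the nearest TSS arm. The peaks at the group 13 genes are printed first because they share a place in the cluster. Each is given on the strand of its gene, 5′ to 3′, without annotated UTR bases, and capitals mark matches to the motifs described further on.
Hoxa13 peak, chr6:52260881-52261019, minus strand: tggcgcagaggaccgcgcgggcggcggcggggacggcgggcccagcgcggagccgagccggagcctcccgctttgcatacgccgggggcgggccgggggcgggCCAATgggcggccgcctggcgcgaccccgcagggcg
Hoxb13 peak, chr11:96194179-96194315, plus strand: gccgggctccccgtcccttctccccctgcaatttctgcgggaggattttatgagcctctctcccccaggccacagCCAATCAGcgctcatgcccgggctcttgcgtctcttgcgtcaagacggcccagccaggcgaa
Hoxc13 peak, chr15:102920823-102920973, plus strand: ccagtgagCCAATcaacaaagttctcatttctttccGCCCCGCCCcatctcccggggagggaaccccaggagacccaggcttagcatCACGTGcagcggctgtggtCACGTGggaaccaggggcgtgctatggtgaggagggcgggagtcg
Hoxd13 peak, upstream bases chr2:74668176-74668224, plus strand: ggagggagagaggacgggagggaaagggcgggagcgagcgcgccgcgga
The sequences are from the GRCm38 RefSeq genome, which is mm10. The 4 peaks are not copies of each other. The longest run of bases shared by any pair was 10, between the *Hoxc13* and *Hoxd13* peaks, and the other pairs shared runs of 8 or 9.

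The score of a peak is the authors' value, whose scale is not stated, and is compared here only within the gained list. The *Hoxa13* peak (chr6:52260869-52261019) had the highest score of the Hox peaks, 238.5, and 5.47% of gained peaks scored as high or higher. HOXA13 patterns the digits and the genital tubercle. The peak covered the *Hoxa13* TSS, with its centre 64 bp upstream, and *Hoxa13* was its nearest gene of any kind. Also within 3 kb was the start of *Hottip*, a long non-coding RNA transcribed away from *Hoxa13*. Starts of *Gm27280*, *Gm27383* and *Gm27985* lay within 3 kb as well. The *Hoxc13* peak (chr15:102920823-102920973) scored 174.5, with 11.6% of the list at or above it, and its centre was 205 bp upstream of the TSS. HOXC13 acts in hair and nail formation. The *Hoxd13* peak (chr2:74668176-74668326) scored 133.5 and covered the TSS and the first coding bases of this digit gene. Its centre was 59 bp upstream of the GENCODE start, but RefSeq marks 85 of the peak's bases before that start as UTR. The *Hoxb13* peak (chr11:96194179-96194329) scored 82.5, the lowest of the 4, and covered the TSS with its centre 62 bp upstream. HOXB13 acts in the tail bud and the prostate. All 4 group 13 peaks were thus within 1 kb of the TSS and scored above the gained list's median of 62.5.

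**Figure D1:**
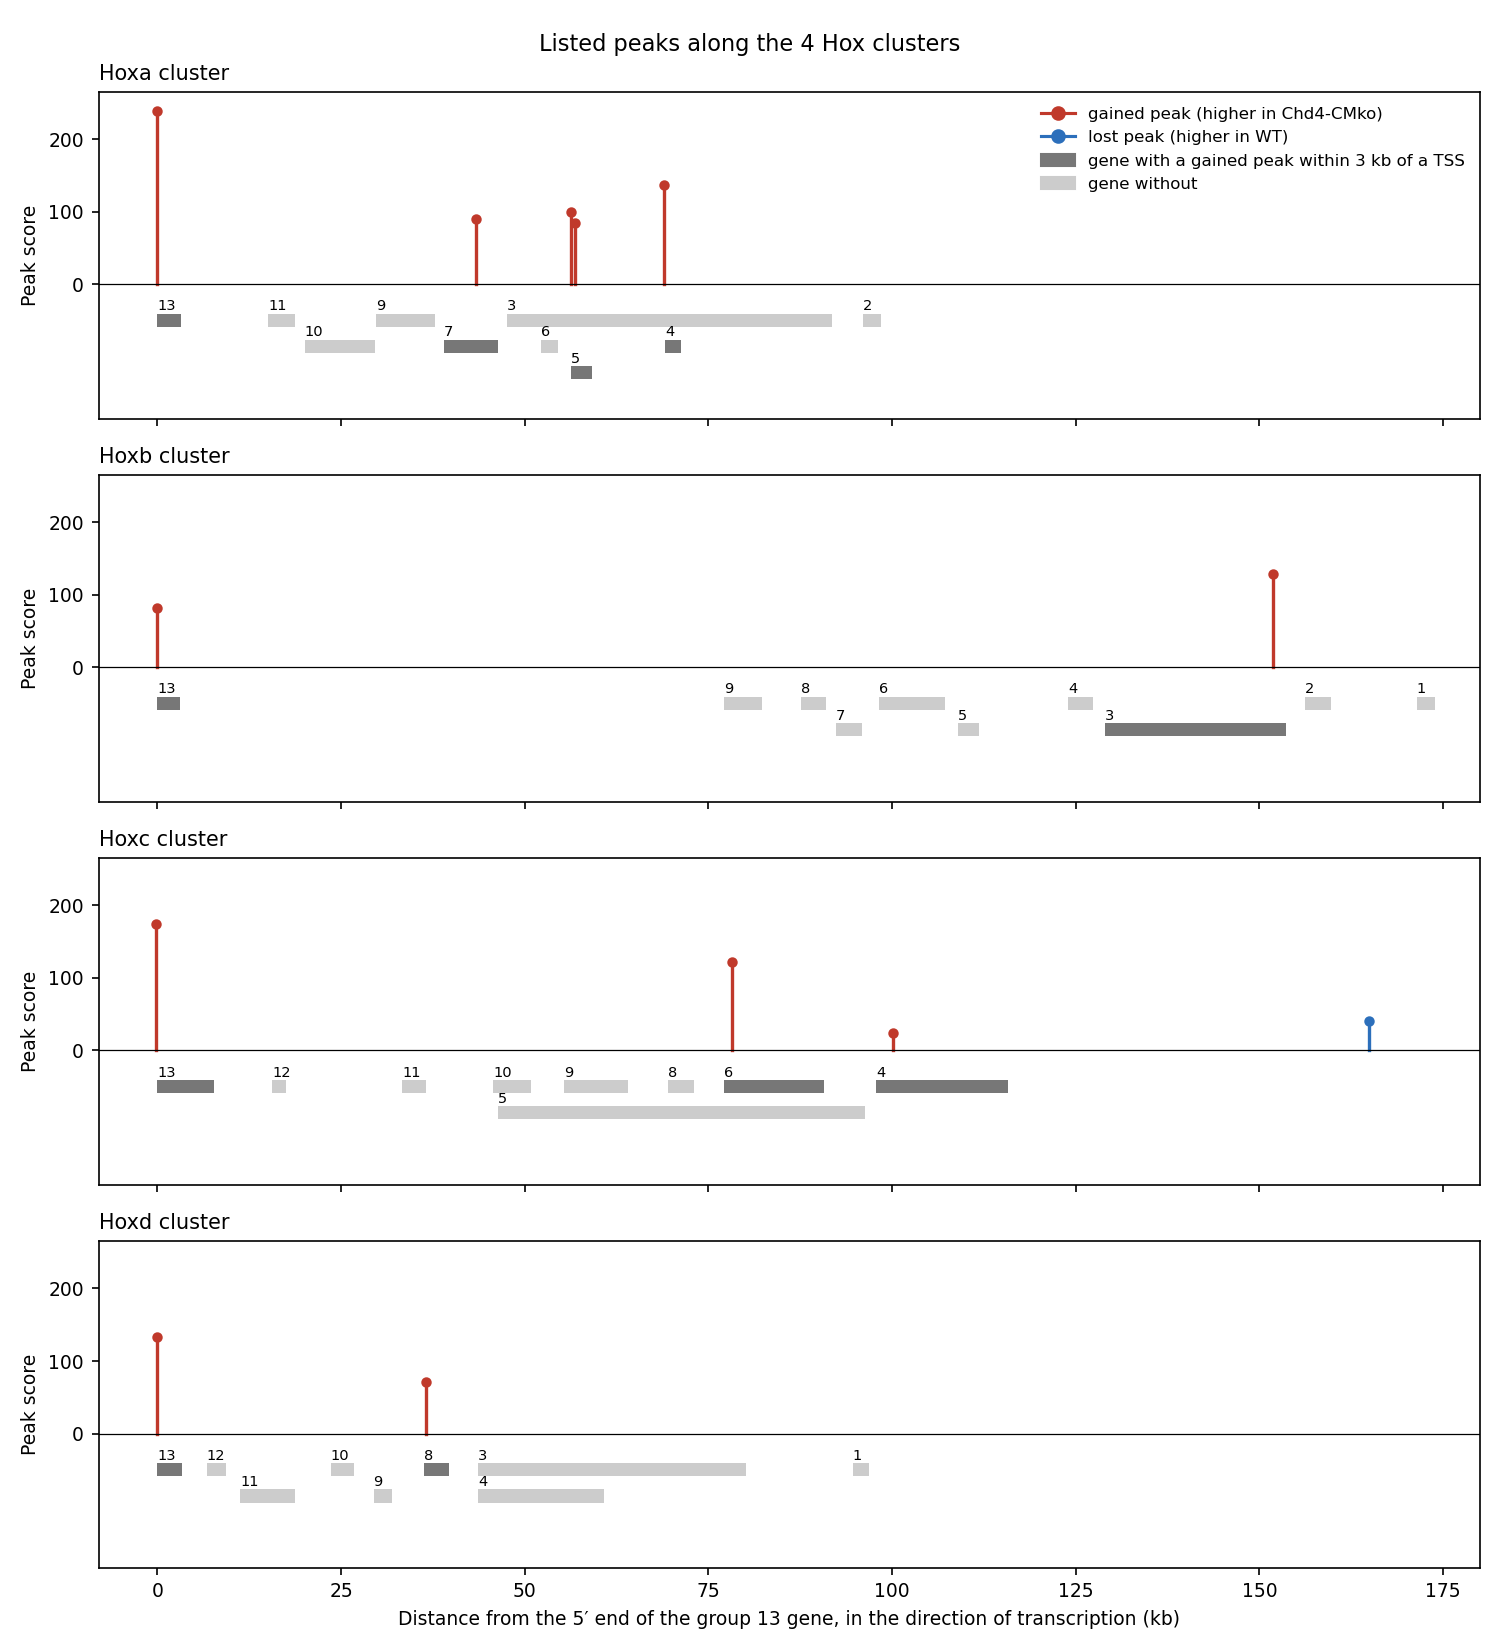
Listed peaks along each Hox cluster, with distance in kb from the 5′ end of the group 13 gene on the x axis, in the direction of transcription, and the peak score on the y axis (gained in red, lost in blue, scores not comparable between the lists). Boxes are gene records with their paralogue group, dark where a gained peak lies within 3 kb of a TSS, and not every gene is drawn. Each cluster has a gained peak at 0, and the only lost peak, score 41.2, lies beyond the 3′ end of the Hoxc cluster.

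The Hoxa cluster (chr6:52155590-52260880, 105 kb) had the most gained peaks, 5 at 4 of its 11 genes, of which 4 had their centre inside the cluster. After *Hoxa13* the highest was at *Hoxa4* (chr6:52191894-52192044), with a score of 137.0 and a centre 216 bp upstream of the TSS. HOXA4 acts in the neck region of the axis. This peak also lay inside an intron of the long *Hoxa3* gene record, which runs across *Hoxa4* to *Hoxa6*. *Hoxa5*, which is needed for the airways, was the sole Hox gene with a pair of gained peaks. One (chr6:52204444-52204594) covered its TSS with a score of 100.0 and the other scored 84.0 and lay in the coding exon, with its centre 530 bp downstream. The *Hoxa7* peak (chr6:52217484-52217634) scored 90.0 and covered the start of a shorter transcript. It lay in a *Hoxa7* exon, 4295 bp downstream of the 5′ end of the gene record. It was thus within 3 kb of a *Hoxa7* TSS only when alternative starts are counted. *Hoxa9*, *Hoxa10* and *Hoxa11* lay wholly in a stretch of 43.3 kb with no listed peak.

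The peak at *Hoxa4* is printed to show the run of CpG bases at a promoter.
Hoxa4 peak, chr6:52191894-52192044, minus strand: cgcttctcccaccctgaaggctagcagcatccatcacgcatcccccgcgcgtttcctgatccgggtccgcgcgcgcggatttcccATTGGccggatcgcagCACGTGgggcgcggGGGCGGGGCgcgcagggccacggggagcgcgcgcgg
This sequence held 24 CpG pairs, and its GC content was 74.2%.

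The Hoxb cluster (chr11:96194316-96368256) was the longest, 174 kb, and held the fewest gained peaks for its length, 2 at 2 of its 10 genes. Besides *Hoxb13*, a peak of score 129.0 (chr11:96346116-96346266) lay in a coding exon of *Hoxb3*, a gene of the hindbrain and pharyngeal arches. Its centre was 2422 bp downstream of the nearest *Hoxb3* start and 22865 bp from the 5′ end of the gene record, and 1732 bp from the start of the antisense gene *Hoxb3os*. ATAC-seq does not mark strand, so the peak belongs to neither gene by itself. The 6 genes from *Hoxb4* to *Hoxb9* lay in a stretch of 152 kb without a listed peak.
Hoxb3 peak, chr11:96346116-96346266, plus strand: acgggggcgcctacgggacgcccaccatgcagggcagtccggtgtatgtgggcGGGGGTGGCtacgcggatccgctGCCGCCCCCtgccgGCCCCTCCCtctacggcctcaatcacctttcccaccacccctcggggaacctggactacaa

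The Hoxc cluster (chr15:102921103-103036852, 116 kb) had 3 gained peaks at 3 of its 9 genes and the only lost peak. *Hoxc6*, a gene of the thoracic region, had a peak of score 122.5 in an intron (chr15:102999304-102999454), with its centre 1122 bp downstream of the TSS. *Hoxc4* had a peak of score 24.5 in an intron (chr15:103021143-103021293), 2284 bp downstream. This was the lowest score of the Hox peaks, with 98.3% of the gained list at or above it. *Hoxc8* to *Hoxc12*, 5 genes, lay in a stretch of 78.3 kb without a listed peak. The lost peak (chr15:103085944-103086094) scored 41.2, with 39.7% of the lost list at or above it. It was intergenic, 49.2 kb beyond the 3′ end of the cluster. Its nearest protein-coding TSS was that of *Hoxc4*, 51624 bp away, and its nearest gene of any kind was *Gm28876*, at 16092 bp.
Hoxc6 peak, chr15:102999304-102999454, plus strand: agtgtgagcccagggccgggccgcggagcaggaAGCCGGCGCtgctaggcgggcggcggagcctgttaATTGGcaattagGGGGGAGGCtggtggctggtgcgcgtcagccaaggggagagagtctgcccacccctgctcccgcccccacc
Hoxc4 gained peak, chr15:103021143-103021293, plus strand: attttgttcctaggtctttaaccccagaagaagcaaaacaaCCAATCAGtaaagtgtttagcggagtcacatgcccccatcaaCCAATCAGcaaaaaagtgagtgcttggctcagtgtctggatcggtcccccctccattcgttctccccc
Hoxc4 lost peak, chr15:103085944-103086094, plus strand: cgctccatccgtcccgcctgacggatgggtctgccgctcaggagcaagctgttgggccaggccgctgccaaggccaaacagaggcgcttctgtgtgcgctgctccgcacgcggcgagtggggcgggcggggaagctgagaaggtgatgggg
The gained *Hoxc4* sequence is shown for its low GC content, 48.3%, and its repeated capitals, and the lost peak beside it held no motif of those searched.

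The Hoxd cluster (chr2:74668310-74765142) was the shortest, 96.8 kb, with 2 gained peaks at 2 of its 9 genes. The *Hoxd8* peak (chr2:74704776-74704926) covered the start of a transcript and scored 71.5. Its centre was 54 bp upstream of that start and 236 bp inside the gene record. *Hoxd1*, *Hoxd3* and *Hoxd4* lay in a stretch of 60.3 kb without a listed peak. Beyond *Hoxd13*, at 12.8 kb from the cluster end, a gained peak of score 56.5 lay 3886 bp from the start of *Evx2*, a homeobox gene beside the cluster that is not counted among the Hox genes.
Hoxd8 peak, bases outside UTRs, chr2:74704776-74704904, plus strand: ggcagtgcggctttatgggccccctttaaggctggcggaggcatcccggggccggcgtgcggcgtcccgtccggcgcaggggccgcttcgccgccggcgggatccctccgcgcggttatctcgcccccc

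Read by paralogue group, gained peaks within 3 kb of a TSS were found at 4 of 4 genes of group 13 and at 0 of 12 genes of groups 9 to 12. They were found at 6 of 15 genes of groups 4 to 8 (*Hoxa4*, *Hoxa5*, *Hoxa7*, *Hoxc4*, *Hoxc6*, *Hoxd8*) and at 1 of 8 genes of groups 1 to 3 (*Hoxb3*). Over all protein-coding genes the share was 12.3%, and at that share counts of 1 of 8 and 0 of 12 are no result. These sections were drawn after the values were seen and were not tested. Outside group 13 no group had a gained peak at more than 1 gene but group 4, with 2 of 4 genes. *Hoxb1* and *Hoxa3*, the genes named above for the second heart field, had no gained peak within 3 kb, and their nearest gained peaks were 19561 and 4223 bp from a TSS.

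The 28 Hox genes without a gained peak within 3 kb of a TSS were spread over all clusters. In Hoxa they included *Hoxa2*, *Hoxa3*, *Hoxa6*, *Hoxa9*, *Hoxa10* and *Hoxa11*, and in Hoxb *Hoxb1*, *Hoxb2* and *Hoxb4* to *Hoxb9*. In Hoxc they were *Hoxc5* and *Hoxc8* to *Hoxc12*, and in Hoxd *Hoxd1*, *Hoxd3*, *Hoxd4* and *Hoxd9* to *Hoxd12*. The distance from a TSS of these genes to the nearest gained peak ran from 4203 bp at *Hoxa6* to 74668 bp at *Hoxb9*. The neighbours *Hoxd9* (7124 bp), *Hoxd3* (7076 bp) and *Hoxd4* (7078 bp) all had the *Hoxd8* peak as their nearest, and *Hoxd12* (6762 bp) had that of *Hoxd13*. The nearest lost peak was between 51624 bp (*Hoxc4*) and 485800 bp (*Hoxd13*) from a Hox TSS.

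**Figure D2:**
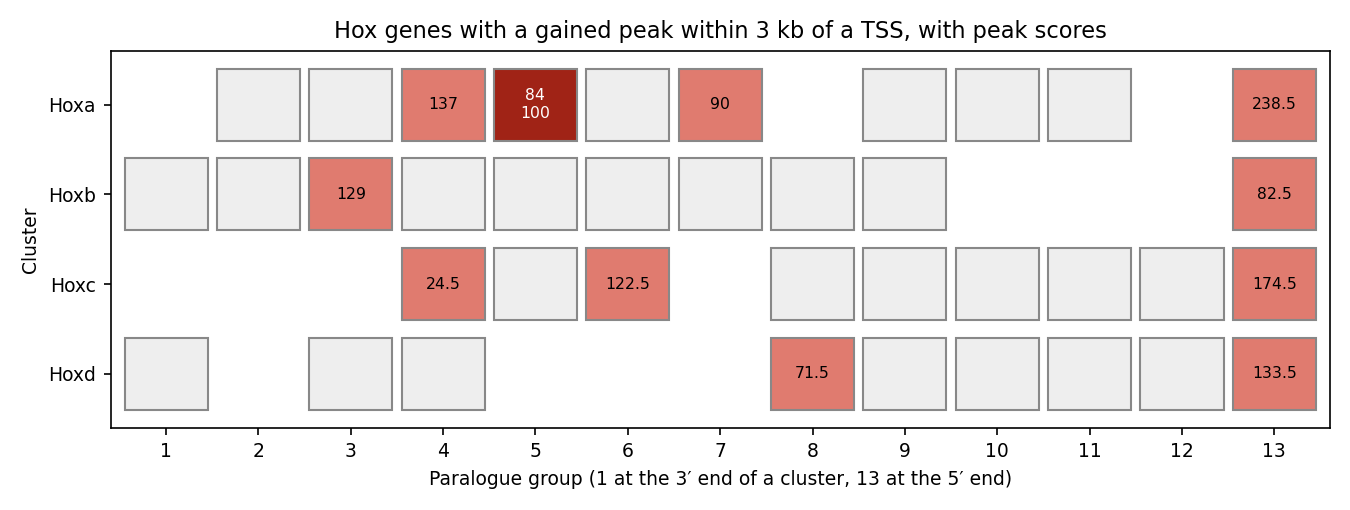
Hox genes by cluster (rows) and paralogue group (columns), coloured where 1 gained peak (light red) or 2 gained peaks (dark red) lay within 3 kb of a TSS, with the peak scores printed; grey squares are genes without one, and blanks are groups a cluster lacks or a gene not drawn. Column 13 is filled in all 4 clusters and columns 9 to 12 hold no coloured square.

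Set against all genes, the 11 of 39 Hox genes with a gained peak within 3 kb of a TSS compare with 12.3% of all protein-coding genes. Many Hox promoters are rich in G and C. Promoter GC was taken around the 5′ end of the gene record, which need not be the start beside the peak. Among genes whose promoter had a GC content of 55% or more, 7 of 25 Hox genes and 17.1% of all genes had a gained peak within 3 kb of a TSS. No Hox gene had a lost peak within 3 kb, where 1.23% of all genes did. Within 10 kb of the gene body, 22 of 39 Hox genes had a gained peak, beside 30.3% of all genes, but neighbouring Hox genes share peaks at that distance and the long records of *Hoxa3* and *Hoxc5* take in those of other genes. No Hox gene had a lost peak within 10 kb of its body (7.31% of all genes). No test was run on these shares, since neighbouring Hox genes are not independent.

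By length, 8 gained peaks had their centre inside a cluster, which is 1.63 per 100 kb over 492 kb, against 0.477 per 100 kb over the chromosomes. The group 13 peaks lie across or just outside the cluster ends and are not in that count. The clusters are dense in genes, with 39 Hox genes in 492 kb, against 21938 protein-coding genes over 2725521 kb of chromosomes. The rates per 100 kb are not adjusted for this, and all Hox gained peaks lay within 3 kb of a TSS. Lost peaks numbered 0 inside the clusters, against 0.101 per 100 kb genome-wide, a density at which less than a single lost peak would lie in so short a length. In the 500 kb on each side of the clusters, gained peaks numbered 2 for Hoxa, 16 for Hoxb, 13 for Hoxc and 7 for Hoxd. The Hoxa cluster had the most gained peaks inside and the fewest around it. Its next gained peak on the *Hoxa13* side was near *Hibadh*, 221 kb away. For Hoxb the next gained peaks were 69.8 kb away, near *Ttll6*, and 68.5 kb away, near *Skap1*.

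The Hox gained peaks had a median score of 111.2 (24.5 to 238.5), and 11 of 12 were at or above the list median of 62.5. The 2975 gained peaks within 3 kb of a protein-coding TSS had a median of 122.5, so the Hox peaks sat in the range of promoter peaks in general. The same held for place: 12 of 12 Hox gained peaks were within 3 kb of a TSS, against 22.9% of the gained list, and 9 of 12 (75%) were within 1 kb, against 72.2% of gained promoter peaks. The rule favours peaks near genes, since 1 arm of it asks for a distance under 10 kb. In base content the Hox peaks had a mean GC of 68.7% ± 10.8 (SD over 12 peaks, 48.3 to 84.8), against 56.7% ± 8.55 for the whole gained list and 64.4% ± 10.1 for gained promoter peaks. Their CpG content, as the ratio of observed to expected CpG pairs, had a median of 0.761, against 0.232 and 0.47. Bases marked as repeats were found in 2 of 12 Hox peaks (16.7%), *Hoxc13* and *Hoxc4*, against 53.1% of the gained list and 48.1% of gained promoter peaks.

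**Figure D3:**
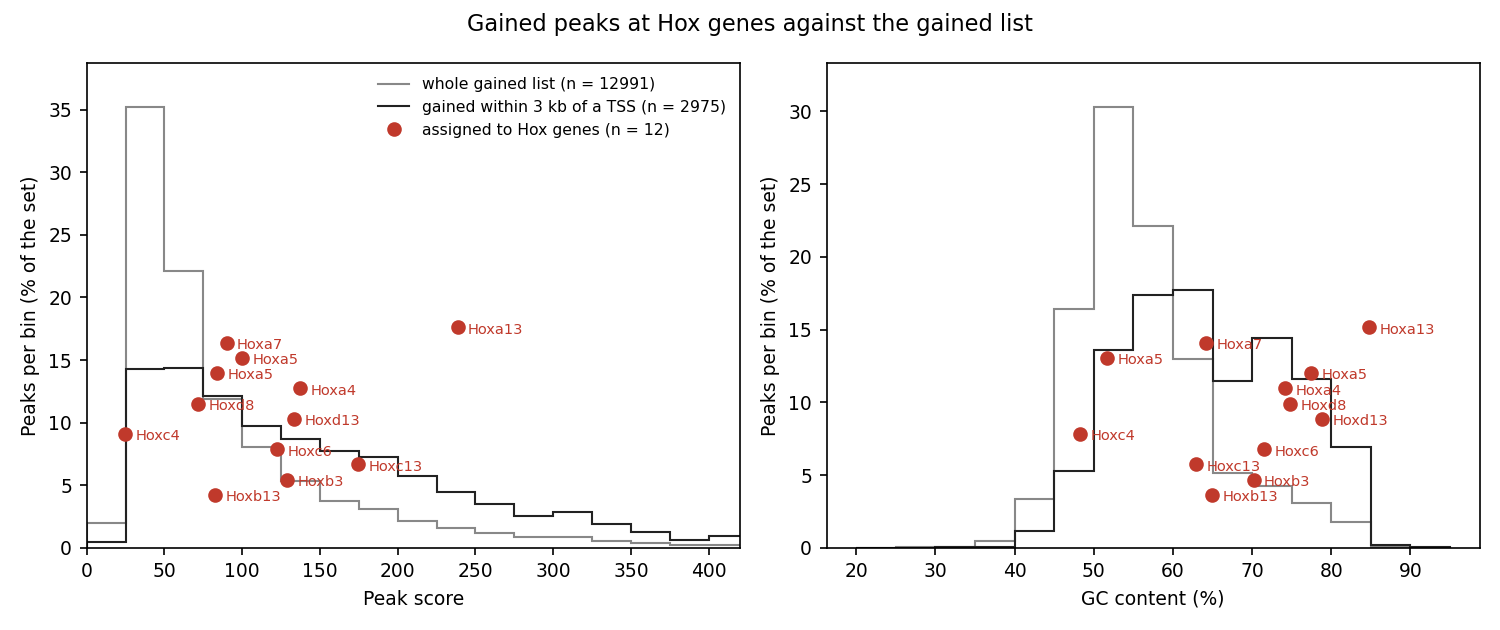
Scores (left, the upper tail of the histograms not drawn) and GC contents in % (right) of the 12 gained peaks at Hox genes, as red points with arbitrary height, over histograms of the whole gained list (grey) and of gained peaks within 3 kb of a TSS (black), as % of each set per bin. The Hox peaks lie between 24.5 and 238.5 in score and between 48.3% and 84.8% in GC content.

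Promoter GC content overlapped between Hox genes with and without a gained peak. It was measured over 500 bp on each side of the 5′ end of the gene record. The median GC there was 58.9% (44 to 73.8) for the 11 Hox genes with a gained peak and 56.3% (45.4 to 68.4) for the 28 without. That end is not always where the peak lies. The peak centre was 22865 bp from it at *Hoxb3*, which gave the minimum of 44%, and 4295 bp from it at *Hoxa7*. The median over all protein-coding genes was 54.7%. The observed to expected CpG ratio had medians of 0.704, 0.665 and 0.552 in the same order.

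The peaks were searched on both strands for 9 short motifs of factors known in Hox control or in the heart. The Hox and PBX site TGATTNAT was in 0 of 12 Hox gained peaks, as were the MEIS site TGACAG, the GATA site AGATAAG, the MEF2 site CTATTTNTA and the TEAD site ACATTCC. In the whole gained list they were in 1.09%, 20.2%, 5.45%, 1.89% and 3.76% of peaks. A count of 0 in 12 peaks limits a share only loosely. The KLF site GGGNGNGGC was in 4 of 12 (*Hoxa4*, *Hoxb3*, *Hoxc6*, *Hoxc13*), against 24.4% of gained and 3.53% of lost peaks. The core of the CTCF site, AGNNGGCGC, was in 2 (*Hoxc6* and *Hoxd13*), against 3.16% and 2.22%. The *Hoxd13* match lies outside the stretch printed above. CTCF binds between Hox genes and separates active from silent parts of a cluster. The nuclear receptor half-site AGGTCA was in 1 (*Hoxa5*), against 15.2% and 8.96%.

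The NF-Y site CCAATNAG was in 2 of 12 Hox gained peaks, *Hoxb13* and *Hoxc4*, against 10.2% of gained and 0.838% of lost peaks, and the *Hoxc4* sequence printed above held it at 2 places. The shorter CCAAT, which the NF-Y site contains, and the E-box CACGTG were added after the sequences had been seen. CCAAT was in 7 of 12 Hox peaks, against 29.3% of the gained list, and in 37.4% of the 32851 RefSeq promoters of GRCm38, whose windows are longer than the peaks. It was in 15 of the 24 Hox starts of that table, which matched 22 of the 39 Hox genes. CACGTG was in 4 of 12 (*Hoxa4*, *Hoxa5*, *Hoxa7* and *Hoxc13*, the last at 2 places), against 4.79% of the gained list, 7.15% of promoters and 5 of the 24 Hox starts. Among RefSeq promoters the KLF site was in 25.8%, the CTCF core in 7.23% and the NF-Y site in 7.1%, and of the 24 Hox starts they were in 5, 5 and 2. The Hox and PBX, MEIS, GATA, MEF2 and TEAD sites were in 3.22%, 19.2%, 3.04%, 1.34% and 3.85% of these promoters. Of the 24 Hox starts, these sites were in 2, 2, 0, 1 and 1. The half-site AGGTCA was in 16.3% of these promoters and in 7 of the 24 Hox starts. A match is a description of these bases and does not show that a factor binds there.

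Genes that act on Hox clusters or are their kin were counted in the same way, as background to the Hox counts. As a reference, 12.3% of all protein-coding genes carried a gained peak in the same 3 kb window, and 1.23% carried a lost one. Earlier results of the data were known when the lists were chosen. Of 15 genes of retinoic acid synthesis, breakdown and response, 7 had a gained peak within 3 kb of a TSS, among them the synthesis enzyme *Aldh1a2* (207.5), the breakdown enzyme *Cyp26b1* (165.0) and the receptors *Rara* (281.0) and *Rarg* (highest of its peaks 486.5), in units of peak score. The other 3 were *Aldh1a3*, *Crabp1* and *Rxrg*, and *Aldh1a1* had a lost peak instead. Of 18 Polycomb and Trithorax genes, 6 had a gained peak and 0 a lost one. Those with a gained peak were *Bmi1* (162.0), *Cbx7* (342.5), *Pcgf2* (322.0), *Phc1* (221.5), *Phc2* (37.5) and *Rnf2* (235.5), all Polycomb repressive complex members. Most of the list is Polycomb genes, with *Kmt2a*, *Kmt2b* and *Men1* as its Trithorax genes, so it gives no contrast between the groups. Of 11 caudal, Evx and ParaHox-related homeobox genes, 6 had a gained peak (*Cdx1*, *Gbx1*, *Gbx2*, *Gsx1*, *Gsx2* and *Mnx1*). The highest score was at *Gbx2* (368.0), and *Mnx1* had both a gained (183.0) and a lost peak (74.9). Of the 9 TALE cofactors, which bind DNA beside HOX proteins, only *Meis2* had listed peaks within 3 kb of a TSS, a gained one (56.0) and a lost one (41.9). Of 44 Forkhead genes, another large family of developmental transcription factors, 11 (25%) had a gained peak (among them *Foxa2*, *Foxa3*, *Foxe1*, *Foxf1*, *Foxf2*, *Foxj2*, *Foxl2*, *Foxn4*, *Foxp4* and *Foxq1*) and 2 a lost one (*Foxe1* and *Foxs1*).

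**Figure D4:**
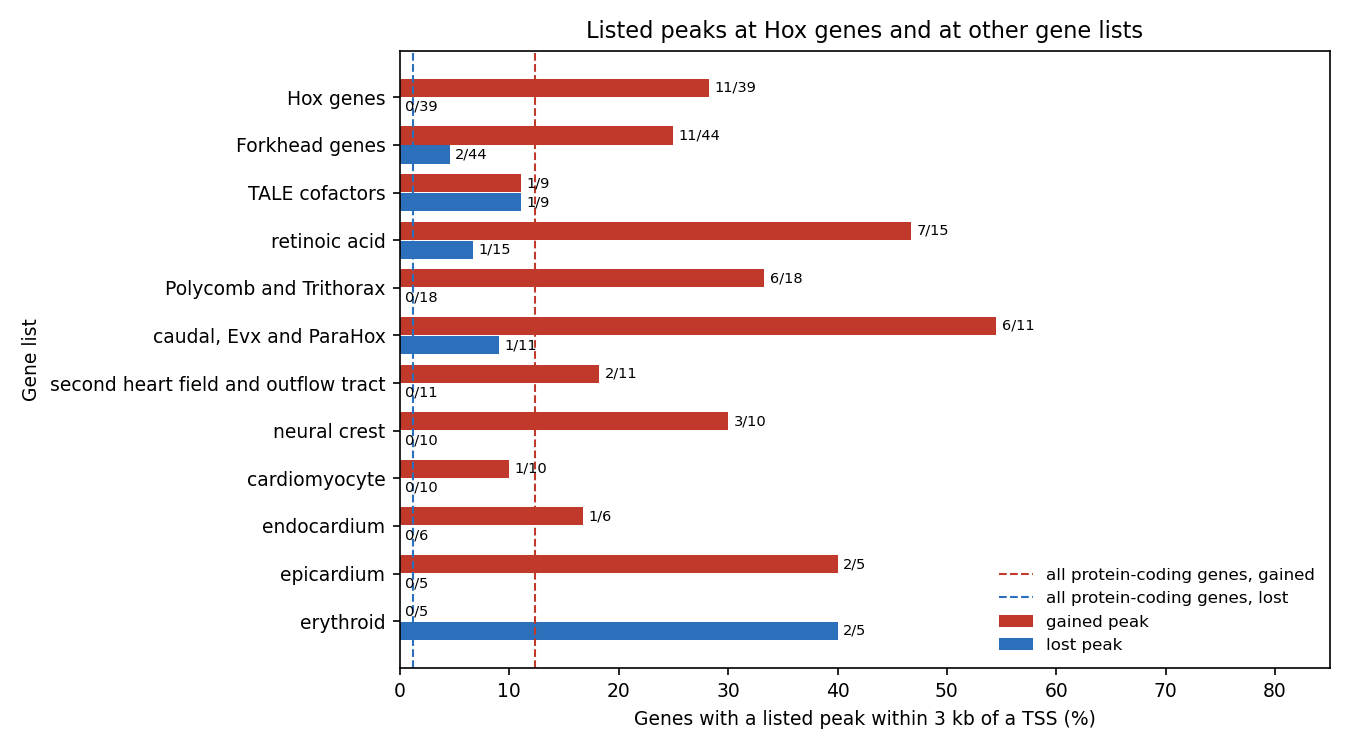
Share of genes in % with a gained (red) or lost (blue) peak within 3 kb of a TSS, for the Hox genes and 11 other lists, with counts at the bars and dashed lines at the shares over all protein-coding genes (12.3% and 1.23%). Hox genes stand at 11 of 39 gained and 0 of 39 lost, near the Forkhead genes at 11 of 44 gained.

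Markers of cell types were counted within the same 3 kb of a TSS because the hearts were not sorted. Over all protein-coding genes the shares were 12.3% with a gained and 1.23% with a lost peak, and with so few genes per list most counts lie near these shares. Of 11 second heart field and outflow tract genes, 2 had a gained peak (*Eya1* and *Fgf8*), and of 10 neural crest genes 3 did (*Pax3*, *Sox10* and *Twist1*, the last with a score of 333.5). Cardiomyocyte genes had 1 of 10 (*Actn2*), endocardial genes 1 of 6 (*Nfatc1*) and epicardial genes 2 of 5 (*Aldh1a2* and *Upk3b*). At that distance, none of these lists had a lost peak. The 5 erythroid genes had 0 gained peaks and 2 genes with lost peaks (*Hba-x* and *Hbb-y*). The part of cell composition in the Hox peaks was not tested, and the lists of differential peaks do not show whether a cell type's markers are open in both genotypes.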

How the data were processed

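ATAC-seq libraries came from 8 samples, 4 WT and 4 *Chd4-CMko*, grouped by the labels. Per the series' text, the authors used BWA-MEM for alignment (mm10), HOMER 4.10.3 for peak calling and ChIPseeker 1.20.0 for annotation, and took peaks past a 2-fold limit as differential. The deposited lists give each peak a score and no value per sample. How samples were combined, duplicates removed and reads shifted for the Tn5 offset is not given in the sources used here, and all 3 steps affect which peaks are listed. The scale of the score is not stated, so scores were compared within a list, except under 1 alternative with a common limit. The sources differ on how many hearts were pooled.

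Coordinates (mm10) were read with GENCODE M21 and the GRCm38 genome in Python 3.11.15 (pandas 2.3.3, numpy 2.4.6, pysam 0.24.0). TSS distances run from the peak centre to the nearest start of any transcript. The alternatives were other windows, score limits and definitions of a start. Members, gene lists and motifs were chosen with earlier results of these data known. Hox genes and genes of the other lists with a peak were named, except that some items are not reported here. Peak values were given for the 3 highest gained scores, the lowest and any lost peak of each cluster, to which *Hoxa7* was added after its values were seen. The assignment and motif search were tested on simulated data.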

Additional observations from a re-analysis of the deposited data

How the results depend on the processing

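The number of gained peaks assigned to Hox genes was 12 under each way of assigning peaks and 11 under either score limit, which removed *Hoxc4*. The lost peaks assigned to Hox genes went from 1 to 0, and the gained share from 92.3% to 100%, when only peaks within 10 kb of a gene body were taken and when the nearest TSS of any annotated gene was used. Both alternatives drop the single lost peak by construction. The number of Hox genes with a gained peak was 11 within 3 kb of a TSS, 21 within 10 kb of a TSS and 22 within 10 kb of the gene body, where more genes share a peak. It was 8 within 1 kb, 9 with the gene record's own 5′ end as the only start, and 10 under the score limits. Over all protein-coding genes the share with a gained peak was 9.1% within 1 kb and 21.7% within 10 kb of a TSS, 8.13% with the gene record's own 5′ end, and 9.69% and 11.5% under the list's own and the common score limit. Gained peaks per 100 kb of cluster ranged from 1.42 to 2.4, the highest with 1 kb added on each side, an alternative chosen after seeing the data. Hox genes with a lost peak within 3 kb numbered 0 under each window and score limit. No paired analysis was possible because the lists hold no value per sample, and for the same reason no sample could be left out in turn. The depth each library reached is not in the lists, and a Hox gene without a listed peak may have been below the authors' limit.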
